A study of Caenorhabditis elegans with 12 samples.

Results

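The *mdt-15(tm2182)* mutant grown at 15 °C was compared with the same mutant grown at 25 °C, gene by gene, in 6 of the 12 RNA-seq libraries of the study, 3 at each temperature. The study asked how *C*. *elegans* adapts its gene expression to low temperature and what the Mediator subunit MDT-15 contributes. The 4 groups were *mdt-15(tm2182)* [*mdt-15(-)*] mutants at 15 °C, *mdt-15(-)* mutants at 25 °C, N2 wild-type worms at 15 °C and N2 wild-type worms at 25 °C, with 3 independent biological repeats each. The mutant strain is 1 line, IJ235, that was outcrossed to N2 before use. Eggs of all groups were synchronized by bleaching, and the larvae were fed OP50 bacteria at 1 of the 2 temperatures until day 1 of adulthood, when whole worms were harvested. All values are thus from RNA of whole adults, eggs included, in which fewer cells of a type and less RNA per cell cannot be told apart.

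MDT-15 is a subunit of Mediator, the complex that links transcription factors to RNA polymerase II. In worms it works with nuclear hormone receptors and other factors in the intestine, where it is best known for activating fatty acid desaturase genes and genes of detoxification and stress responses. Cold makes membranes stiffer and slows development, and worms answer with changes in lipid desaturation, secreted proteins and reproduction.

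The deposited tables compare the 2 temperatures in wild type and the 2 genotypes at each temperature, so the mutant comparison was derived from them. For each gene, the wild-type temperature effect was added to the *mdt-15(-)* effect at 15 °C, and the *mdt-15(-)* effect at 25 °C was subtracted. This gives the log2 fold change of *mdt-15(-)* at 15 °C minus *mdt-15(-)* at 25 °C for the 12443 genes in all 3 tables, with its standard error (SE) and limma's moderated t test. A gene was called at a Benjamini-Hochberg adjusted p below 0.05 over all genes and a fold change above 1.5. Levels are estimates as cpm (reads of a gene scaled to a common library total) for each group, because the tables hold no value per library, and they carry no error of their own. The depth of the libraries is therefore unknown, and whether single libraries stand apart or groups overlap could not be seen. The *mdt-15* transcript was estimated at 0.976 cpm in *mdt-15(-)* at 15 °C and 0.557 cpm in *mdt-15(-)* at 25 °C, a log2 fold change of 0.81 with an SE of 1.95, so it gave no check of the labels.

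In *mdt-15(-)*, 261 genes were higher and 149 were lower at 15 °C than at 25 °C, which is 2.1% and 1.2%, together 3.3%, of the genes tested. The median log2 fold change over all genes was 0.03, and 78.6% of genes differed less than 2-fold between the temperatures. The genes that rose did so by a median of 5.01-fold, and 168 of the 261 exceeded 4-fold. The genes that fell did so by a median of 3.59-fold, and 69 of the 149 exceeded 4-fold. For 84 of the genes that rose and 42 of those that fell, the lower mutant group was estimated below 1 cpm, where the size of a fold change depends on the value that voom adds to each count. Of the calls, 63.7% were in the higher direction, and this split was 48.0% when fold changes were centred on a running median along expression. The number of calls rests strongly on the error model, since 77 higher and 58 lower genes were left on 8 degrees of freedom in place of the recovered 10.4.

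The 10 called genes with the highest t in *mdt-15(-)*, among those whose average log2 expression was 1 or more, were genes of several kinds. *cyp-33C8*, which encodes a cytochrome P450, was estimated at 43.5 cpm at 15 °C and 3.97 cpm at 25 °C in the mutant, against 3.20 and 1.86 cpm in wild type at these temperatures. Its log2 fold change in *mdt-15(-)* was 3.45 (SE 0.26, adjusted p = 0.000506), so the mutant at 15 °C stood far above the other 3 groups. *cdr-4*, a gene induced by cadmium, was estimated at 328 cpm in *mdt-15(-)* at 15 °C and 26.3 cpm in *mdt-15(-)* at 25 °C, a log2 fold change of 3.64 (SE 0.35, adjusted p = 0.00115). In wild type *cdr-4* stood at 19.9 cpm at 15 °C and 19 cpm at 25 °C. The UDP-glucuronosyltransferase gene *ugt-19* rose 6.43-fold, to 31.9 cpm in *mdt-15(-)* at 15 °C against 4.97 cpm in *mdt-15(-)* at 25 °C. The small heat-shock protein gene *hsp-17* rose 11.3-fold, to 202 cpm against 17.9 cpm, and the mitochondrial sirtuin gene *sir-2.3* rose 5.19-fold, to 12.6 cpm against 2.42 cpm. *F17C11.13*, *K10C2.8*, *B0205.13* and *K09C6.9*, genes known by sequence names, had log2 fold changes of 3.90, 3.11, 3.11 and 2.59. The tenth gene, *nspc-18*, had the second highest t of the set and is described with its family.

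**Figure D1:**
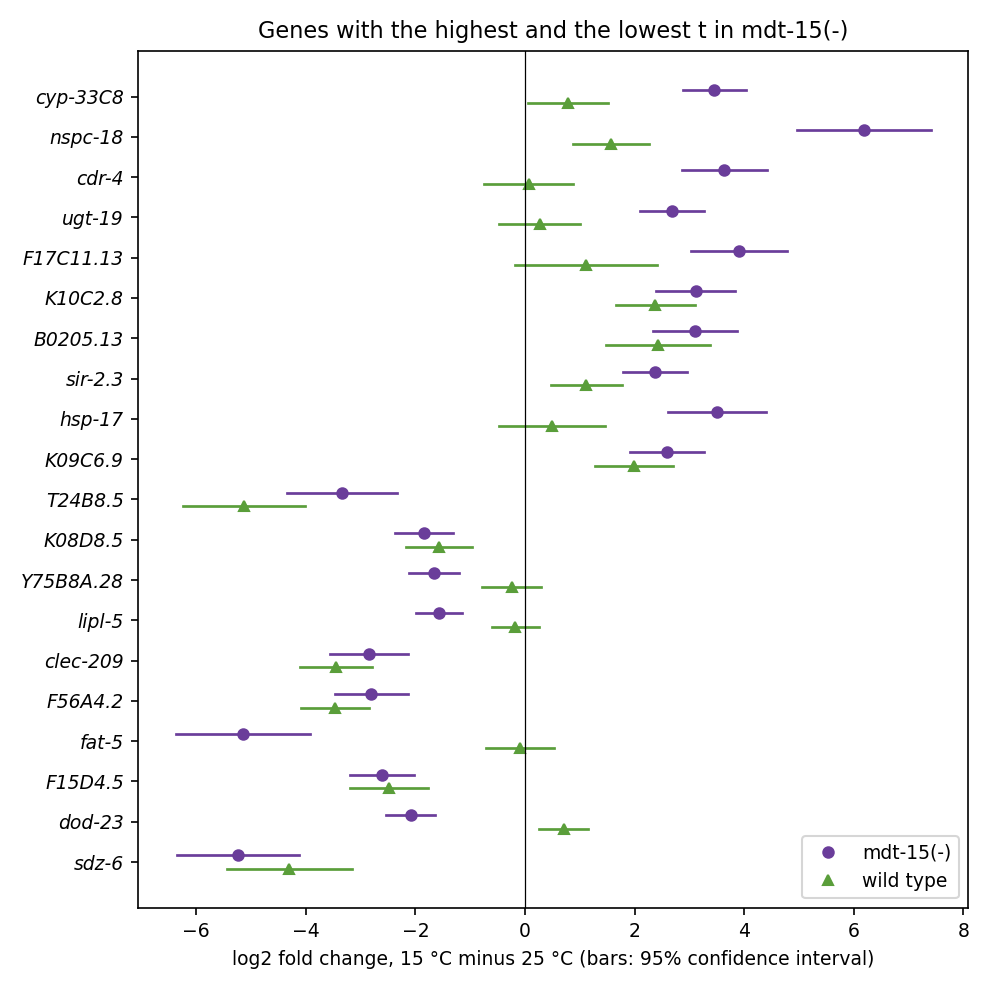
Log2 fold change (15 °C minus 25 °C, x axis) of the 10 genes with the highest t and the 10 with the lowest t in *mdt-15(-)*, among called genes whose average expression was 1 or more on the log2 scale. Circles are *mdt-15(-)*, triangles are wild type and bars are 95% confidence intervals; *cdr-4* lies at 3.64 in *mdt-15(-)* and at 0.07 in wild type, while *K10C2.8* lies at 3.11 and 2.38.

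Several genes were near absence in *mdt-15(-)* at 25 °C and present at 15 °C. The saposin-like gene *spp-21* had the largest rise, with 25.9 cpm in *mdt-15(-)* at 15 °C, 0.211 cpm in *mdt-15(-)* at 25 °C, and 0.125 and 0.131 cpm in wild type at 15 °C and 25 °C. The lipase gene *lips-11* was estimated at 13 cpm in *mdt-15(-)* at 15 °C and at no more than 0.185 cpm in the other 3 groups. The uncharacterized genes *C04C3.14* and *F28E10.4* had 9 and 5.77 cpm in *mdt-15(-)* at 15 °C, against 0.104 and 0.102 cpm in *mdt-15(-)* at 25 °C. In wild type all 4 were below 1 cpm at both temperatures. Their log2 fold changes (6.94, 6.26, 6.44 and 5.82) are given as fitted and are no bounds.

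Families of enzymes and pumps that modify and export foreign or waste compounds differed in their counts. Of 44 UDP-glucuronosyltransferase genes, 5 rose (*ugt-19*, *ugt-21*, *ugt-13*, *ugt-62* and *ugt-1*) and 2 fell (*ugt-39* and *ugt-52*), 11.4% and 4.55% of the family beside 2.1% and 1.2% of all genes, with a family median of 0.00. Of 36 glutathione S-transferase genes, 3 rose (8.33%, beside 2.1% of all genes) and 0 fell, with a median of 0.31. At the study's own threshold, 6 were higher and 4 lower. One of them, *gst-4*, a well-known reporter of oxidative stress, had 3.83 cpm in *mdt-15(-)* at 15 °C and 1.19 cpm in *mdt-15(-)* at 25 °C, both far under the 28.2 and 46.2 cpm of wild type. *gst-38* was instead highest in the mutant, with 28.5 cpm at 15 °C and 8.24 cpm at 25 °C. Of 40 cytochrome P450 genes, *cyp-33C8* alone was called (2.5%, beside 2.1% of all genes higher), their median was -0.10, and at the study's own threshold 1 was higher and 7 were lower. Of 7 metallothionein and *cdr* genes, *cdr-4* and *cdr-2* rose (28.6% beside 2.1% of all genes) and 0 fell. The median of these 7 was 0.10, with 4 members above 0 and 3 below. At the study's own threshold, 2 were higher and 1 was lower. Among 8 P-glycoprotein genes, which encode efflux pumps and were grouped after their values were seen, *pgp-1*, *pgp-9* and *pgp-3* rose by log2 fold changes of 2.63, 2.58 and 1.17. They make up 37.5% of that group, beside 2.1% of all genes.

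**Figure D2:**
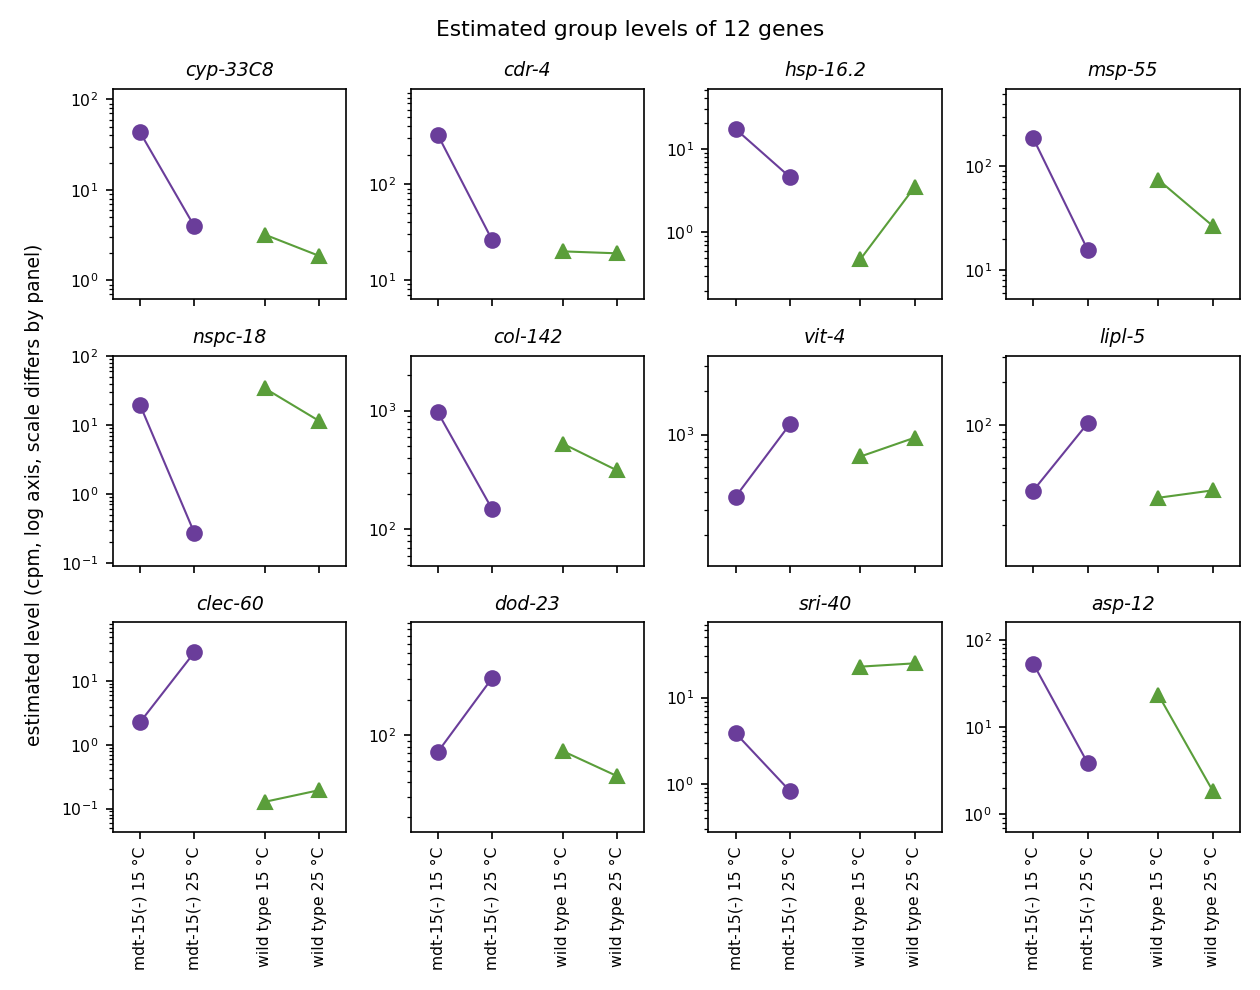
Estimated level (cpm, log axis) of 12 genes in *mdt-15(-)* at 15 °C and 25 °C (circles) and wild type at 15 °C and 25 °C (triangles), 1 panel per gene and no error bars because the tables hold no value per library. *cyp-33C8* and *cdr-4* are high in *mdt-15(-)* at 15 °C alone, *nspc-18* is low in *mdt-15(-)* at 25 °C alone (0.272 cpm), and *asp-12* is higher at 15 °C in both genotypes.

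Many calls fell in the nematode-specific peptide family, short proteins named *nspa* to *nspe*. Of 40 such genes, 18 rose (45% beside 2.1% of all genes) and 0 fell, and the family median was 2.13 in *mdt-15(-)*, against 0.84 in wild type. Of 18 *nspc* genes, 14 rose, 77.8% of them. The 6 *nspb* and *nspe* genes held no call and had a median of 0.12, with 3 above 0 and 3 below. At the study's own threshold, 2 of these 6 were higher and 2 were lower. *nspc-18* was estimated at 19.7 cpm in *mdt-15(-)* at 15 °C and 0.272 cpm in *mdt-15(-)* at 25 °C, against 34 cpm in wild type at 15 °C and 11.4 cpm in wild type at 25 °C. *nspc-17*, its neighbour, stood at 6.90 cpm in *mdt-15(-)* at 15 °C and 0.429 cpm in *mdt-15(-)* at 25 °C, against 28.9 and 17.6 cpm in wild type. For both, the mutant at 25 °C was the low group. Of 7 *nspa* genes, *nspa-7*, *nspa-6* and *nspa-1* rose, *nspa-7* to 51.6 cpm in *mdt-15(-)* at 15 °C against 1.78 cpm in *mdt-15(-)* at 25 °C. Wild type had 22.1 cpm at 15 °C and 1.81 cpm at 25 °C and was not called for this gene. Genes within a group of this family can be close copies, so reads can be split between them and their values are not independent. Their sequences were not compared here.

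Sperm genes stood higher as a group at 15 °C. The list holds 84 genes of sperm, 33 of them genes of the major sperm protein, the cytoskeletal protein that drives the crawling of nematode sperm. In *mdt-15(-)* 79 of the 84 had a positive log2 fold change, beside 6464 of all 12443 genes. The median was 2.38, against 0.38 in wild type. Of the 84, 8 were called (9.52% beside 2.1% of all genes), among them *msp-55*, *msp-142*, the phosphatase gene *gsp-3* and *ssp-19*. The SE of the list's genes had a median of 0.73, against 0.44 over all genes. By the study's own threshold of an unadjusted p below 0.05 and a fold change above 1.5, 66 of the 84 were higher, beside 12.9% of all genes. *msp-55* was estimated at 186 cpm in *mdt-15(-)* at 15 °C and 15.7 cpm in *mdt-15(-)* at 25 °C (log2 fold change 3.57, SE 0.71, adjusted p = 0.0289), against 74.4 and 26.7 cpm in wild type. Summed over the list, the estimates were 10544 cpm in *mdt-15(-)* at 15 °C and 1912 cpm in *mdt-15(-)* at 25 °C, against 3628 and 2863 cpm in wild type. The 9 *nspd* genes, which are made in sperm and are in both lists, had a median of 2.40, and 1 of them, *nspd-9*, was called. Copies of *msp* genes share reads, and their values are not independent.

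Yolk genes moved in the other direction. All 6 vitellogenin genes, which encode the yolk proteins that the adult intestine loads into oocytes, had negative log2 fold changes in *mdt-15(-)*, with a median of -1.44, against -0.51 in wild type. *vit-4* fell to 370.1 cpm in *mdt-15(-)* at 15 °C, against 1178 cpm in *mdt-15(-)* at 25 °C (log2 fold change -1.67, SE 0.33, adjusted p = 0.0284). *vit-1* fell to 135 cpm in *mdt-15(-)* at 15 °C, against 425 cpm in *mdt-15(-)* at 25 °C. By the study's own threshold, all 6 were lower, beside 5.86% of all genes. The other 4 were not called at the adjusted p, and their log2 fold changes ranged between -1.81 for *vit-3* and -0.87 for *vit-2*. The summed level of the list was 4767 cpm in *mdt-15(-)* at 15 °C and 10392 cpm in *mdt-15(-)* at 25 °C, against 7429 and 10779.9 cpm in wild type. Among 36 oocyte and eggshell genes no member was called, and their median was -0.37. Among 31 embryonic genes, *sdz-6* and *hnd-1* fell and *sdz-35* rose, with a list median of -0.77. These are 6.45% and 3.23% of the list, beside 1.2% of all genes lower and 2.1% higher. At the study's own threshold, 14 of the 31 were lower, beside 5.86% of all genes, and 1 was higher. The median was -0.47 among the 14 embryonic genes averaging 1 or more on the log2 scale.

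The muscle, collagen, intestine and neuron lists held 3 calls between them. All 19 genes of body wall muscle had a positive log2 fold change, with a median of 0.80. *tnt-2*, a troponin T gene, was the 1 member called (5.26% beside 2.1% of all genes), with a log2 fold change of 0.90 and an SE of 0.21. At the study's own threshold, 6 of the 19 were higher, beside 12.9% of all genes. Cuticle collagens, the main proteins of the worm's exoskeleton, had a median of 0.83 over 133 genes in *mdt-15(-)*, against -0.38 in wild type. The SE of the collagen genes had a median of 0.88, against 0.44 over all genes. Of the 133, only *col-110* and *col-142* rose (1.5% beside 2.1% of all genes), *col-142* to 969.9 cpm in *mdt-15(-)* at 15 °C against 148 cpm in *mdt-15(-)* at 25 °C. At the study's own threshold, 8 of the 133 were higher, beside 12.9% of all genes, and 1 was lower. The 10 intestine genes and 11 neuron genes held no call. The sperm and muscle medians (2.38 and 0.80) and the yolk and embryonic medians (-1.44 and -0.77) thus differed from 0 in the same comparison as every other result given here, and the part of worm stage or tissue makeup in those results was not tested.

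**Figure D3:**
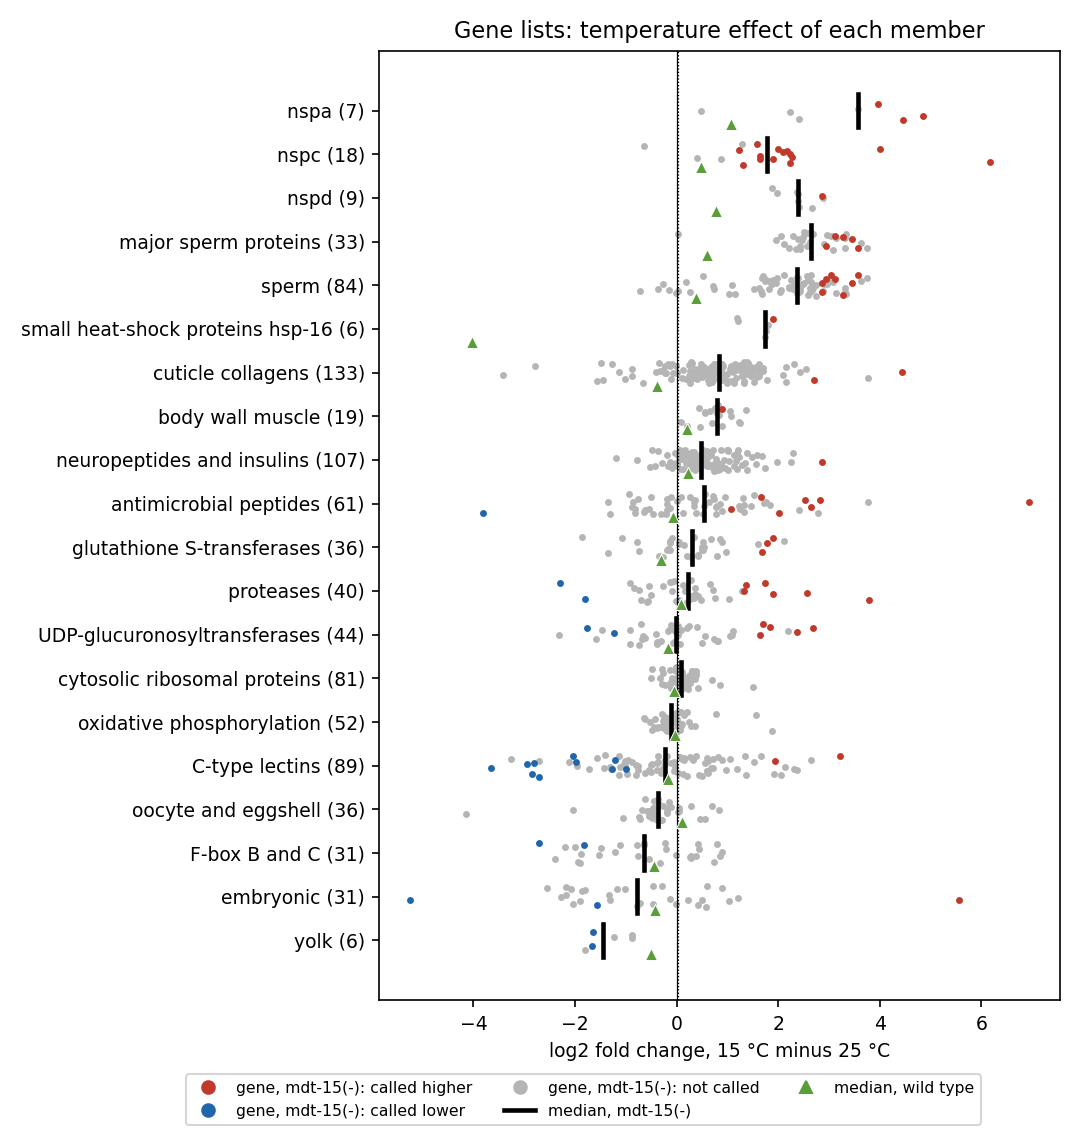
Log2 fold change (15 °C minus 25 °C, x axis) of every member of 20 gene lists in *mdt-15(-)*, with the number of genes in brackets. Points are genes, black bars are list medians in *mdt-15(-)* and triangles are list medians in wild type; the *nspa*, *nspc*, *nspd* and sperm medians lie between 1.77 and 3.57, and yolk lies at -1.44. The sperm list contains the major sperm protein and *nspd* lists.

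The heat-shock genes of the *hsp-16* family, which encode small chaperones, had positive log2 fold changes in *mdt-15(-)* and negative ones in wild type. *hsp-16.2* rose in *mdt-15(-)* to 17.2 cpm at 15 °C, against 4.59 cpm at 25 °C, whereas wild type had 0.480 cpm at 15 °C and 3.51 cpm at 25 °C. It was the only gene called in opposite directions in the 2 genotypes. The other 5 members had log2 fold changes of 1.19 to 1.81 in *mdt-15(-)* and were not called, *hsp-16.1* with 208 cpm in *mdt-15(-)* at 15 °C and 61.7 cpm in *mdt-15(-)* at 25 °C (adjusted p = 0.0574). All 6 passed the study's own threshold, and the difference between genotypes passed its test for all but *hsp-16.41*. The HSP70 genes *F44E5.4* and *F44E5.5*, which the study also names, were called in neither genotype. Their log2 fold changes were 0.98 and 1.04 in *mdt-15(-)* and -2.98 and -2.97 in wild type. *hsp-16.1* and *hsp-16.11*, and likewise *hsp-16.48* and *hsp-16.49*, carry 1 symbol per pair in the current annotation and can share reads.

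Proteases and immune effectors changed in both directions. Of 40 protease genes, 6 rose and 2 fell, 15% and 5% beside 2.1% and 1.2% of all genes. *asp-12*, an aspartyl protease gene, rose to 53.4 cpm in *mdt-15(-)* at 15 °C, against 3.88 cpm in *mdt-15(-)* at 25 °C, and was called in wild type too, with 23.6 cpm at 15 °C and 1.87 cpm at 25 °C. *cpr-8*, a cathepsin B-like gene, was likewise called in both genotypes, whereas *asp-13* fell to 15.9 cpm in *mdt-15(-)* at 15 °C, against 78.6 cpm in *mdt-15(-)* at 25 °C. Of 89 C-type lectin genes, which encode sugar-binding proteins many of which answer to infection, 2 rose and 10 fell, 11.2% of the list beside 1.2% of all genes. *clec-60* fell to 2.26 cpm in *mdt-15(-)* at 15 °C, against 28.4 cpm in *mdt-15(-)* at 25 °C (log2 fold change -3.65, SE 0.30, adjusted p = 0.000506), and was below 0.2 cpm in wild type at both temperatures. *clec-209* and *F56A4.2* had log2 fold changes of -2.84 and -2.80 and fell in wild type as well. They carry 1 symbol in the current annotation but lie at separate positions on chromosome V. Of 61 antimicrobial peptide genes, 7 rose (11.5% beside 2.1% of all genes), among them *spp-21*, the caenacin gene *cnc-7* and the defensin-like gene *abf-1*, and *cnc-6* fell. *T24B8.5*, a gene of the intestinal immune response, fell to 8.19 cpm in *mdt-15(-)* at 15 °C, against 82.7 cpm in *mdt-15(-)* at 25 °C, and it fell in wild type too.

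Lipid genes were called in both directions. Of 14 lipase genes, *lips-11* and *lips-15* rose and *lipl-3*, *lipl-2* and *lipl-5* fell, 14.3% and 21.4% beside 2.1% and 1.2% of all genes. Among 7 fatty acid desaturase genes, *fat-5* alone was called (14.3% lower beside 1.2% of all genes), with 0.394 cpm in *mdt-15(-)* at 15 °C and 14 cpm in *mdt-15(-)* at 25 °C, against 43.2 and 45.8 cpm in wild type. *fat-7* had 0.152 and 0.115 cpm in *mdt-15(-)* at 15 °C and 25 °C. In wild type it had 135 and 6.5 cpm and was called higher. *fat-1* to *fat-4* and *fat-6* had log2 fold changes in *mdt-15(-)* between -1.45 for *fat-2* and -0.10 for *fat-3*. The lipase genes that fell belong to the 5 *lipl* genes, which encode lysosomal lipases and were set apart after their values were seen. *lipl-5* stood at 34.7 cpm in *mdt-15(-)* at 15 °C and 103 cpm in *mdt-15(-)* at 25 °C, against 30.9 and 34.8 cpm in wild type, so the mutant at 25 °C was the high group. The 38 genes of beta-oxidation held 1 call, the acyl-CoA oxidase gene *acox-5*, which rose 3.18-fold. The 19 acyl-CoA synthetase genes held 1, *acs-6*, which rose 3.89-fold. These are 2.63% and 5.26% of the lists, beside 2.1% of all genes higher. Of 145 nuclear hormone receptor genes, *nhr-115*, *nhr-131* and *nhr-193* rose, 2.07% beside 2.1% of all genes, and *nhr-68*, which controls propionate breakdown, fell to 6.09 cpm in *mdt-15(-)* at 15 °C against 13.6 cpm in *mdt-15(-)* at 25 °C.

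Among the genes that fell most clearly were *dod-21* and *dod-23*, genes downstream of the insulin pathway factor DAF-16. *dod-23* was estimated at 71.7 cpm in *mdt-15(-)* at 15 °C and 305 cpm in *mdt-15(-)* at 25 °C, against 73.2 and 44.9 cpm in wild type (log2 fold change in *mdt-15(-)* -2.09, SE 0.20). *sdz-6* fell in both genotypes, to 0.600 cpm in *mdt-15(-)* at 15 °C against 22.7 cpm in *mdt-15(-)* at 25 °C. *F15D4.5*, *K08D8.5* and *Y75B8A.28* fell by log2 fold changes of -2.61, -1.84 and -1.66. The largest falls among called genes included *rpr-1*, the RNA component of RNase P (-6.67, SE 1.45), and *F35C11.5* (-5.96, SE 1.39). They also included the DNA repair gene *rad-50* (-5.38, SE 0.82). Each of these 3 was estimated below 1 cpm at 15 °C, and the errors of *rpr-1* and *F35C11.5* were wide.

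In 30 of the 62 gene lists, with 688 members in all, no gene was called in *mdt-15(-)*, beside 3.3% of all genes. The medians of these lists lay between -0.41 for lysozymes and 1.01 for the inducible HSP70 genes. At the study's own threshold, 5 of the 12 lysozyme genes were lower, beside 5.86% of all genes, and 0 were higher. The 30 lists were of many kinds, such as fatty acid elongases, molting genes and the core machinery of the cell. Among them were 81 cytosolic ribosomal protein genes (median 0.09), 33 proteasome genes (-0.03), 52 genes of oxidative phosphorylation (-0.11), 17 genes of endoplasmic reticulum chaperones and the unfolded protein response (-0.13) and 25 autophagy genes (-0.30). A lack of calls at these errors does not show that such genes were equal at the 2 temperatures.

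The temperature effects of *mdt-15(-)* and wild type share no library, only the variance estimate of each gene. In wild type, 40 genes were higher (0.321%) and 116 were lower (0.932%) at 15 °C. Of the 261 genes that rose in *mdt-15(-)*, 227 had the same sign in wild type and 19 were also called there, which is 7.28% of the mutant's genes and 47.5% of the wild-type genes. Of the 149 genes that fell, 141 had the same sign in wild type and 53 were also called there, which is 35.6% of the mutant's genes and 45.7% of the wild-type genes. The share of all genes with the same sign in both genotypes was not counted. Across genes, the 2 effects had a Pearson correlation of 0.37 and a Spearman correlation of 0.35, as a description, since genes are not independent. A test of the difference between the 2 effects passed for 14 genes (0.113%), and 868 genes had an unadjusted p below 0.05. Of the 14, 6 rose in *mdt-15(-)* (*nspc-18*, *cdr-4*, *lips-11*, *hsp-16.2*, *sri-40* and *C04C3.14*) and 3 fell (*fat-5*, *dod-23* and *H11L12.1*). For most genes called in only 1 genotype, a difference between genotypes is therefore not shown.

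**Figure D4:**
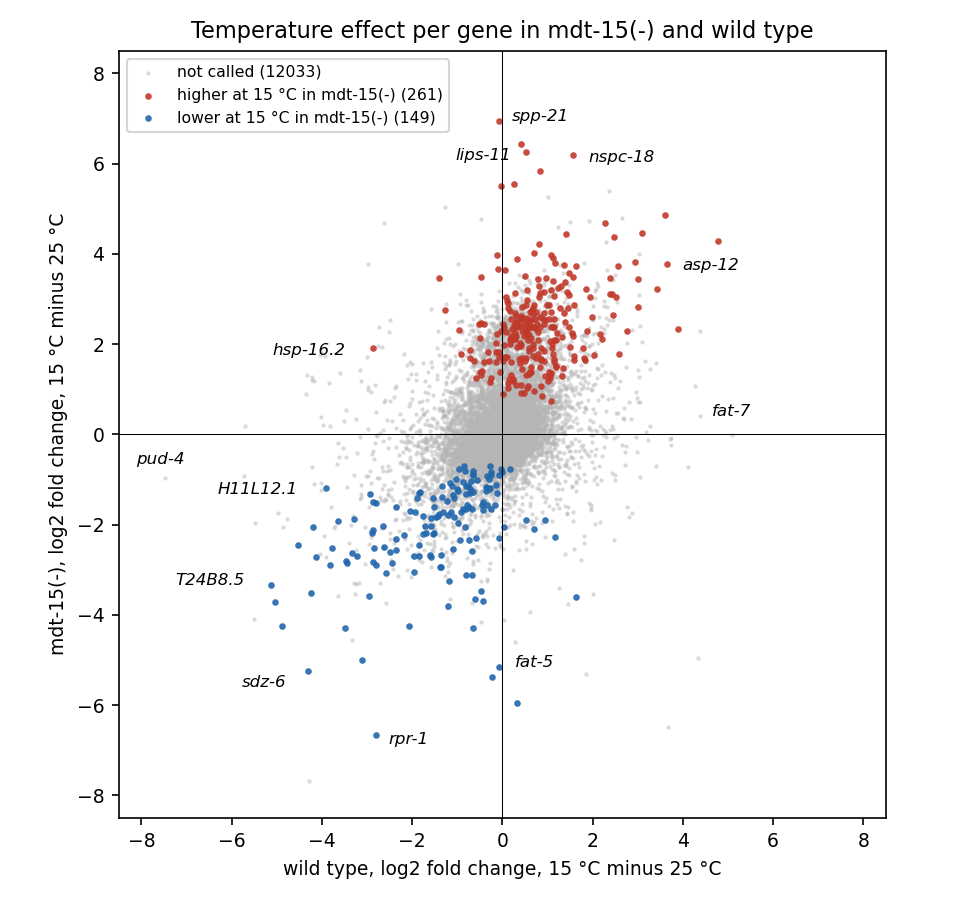
Log2 fold change (15 °C minus 25 °C) of 12443 genes in *mdt-15(-)* (y axis) and wild type (x axis), with the 261 genes that rose and the 149 that fell in *mdt-15(-)* in colour. *asp-12* and *sdz-6* lie near the diagonal, *fat-5* and *spp-21* near the vertical axis, and *hsp-16.2* is the red point farthest to the left (-2.87 in wild type).

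The mutant groups were also set beside wild type at the same temperature. Of the 261 genes that rose, 180 were estimated more than 2-fold above wild type in the mutant at 15 °C, and 37 more than 2-fold below wild type in the mutant at 25 °C, while for 56 neither held. In 41 of the 261, the mutant was more than 2-fold above wild type at both temperatures. Of the 149 genes that fell, 32 were more than 2-fold below wild type at 15 °C and 38 more than 2-fold above wild type at 25 °C, while for 82 neither held. These counts use the same mutant groups as the calls and are a description. The same counts were not made over all genes, so what is particular to the called genes cannot be read from them.

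The share of calls varied between chromosomes, with no test made. On chromosome V, 3.84% of 2368 genes rose, against 0.856% of 1985 genes on chromosome III. Of 260 genes that rose and have a position in the annotation, 53 had a neighbour that also rose, and 10.6% of all genes next to one that rose had risen themselves, beside 2.1% of all genes. Of the genes next to one that fell, 5.82% had fallen, beside 1.2% of all genes. The runs of 3 or more neighbours included *nspc-16*, *nspc-17* and *nspc-18* (chromosome X, 14523575 to 14527659, assembly WBcel235), *nspc-13* to *nspc-15*, *nspc-5* to *nspc-7*, and *asp-17* with the genes beside it on chromosome V. Since copies of 1 family lie side by side and can share reads, neighbours are not independent.

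**Figure D5:**
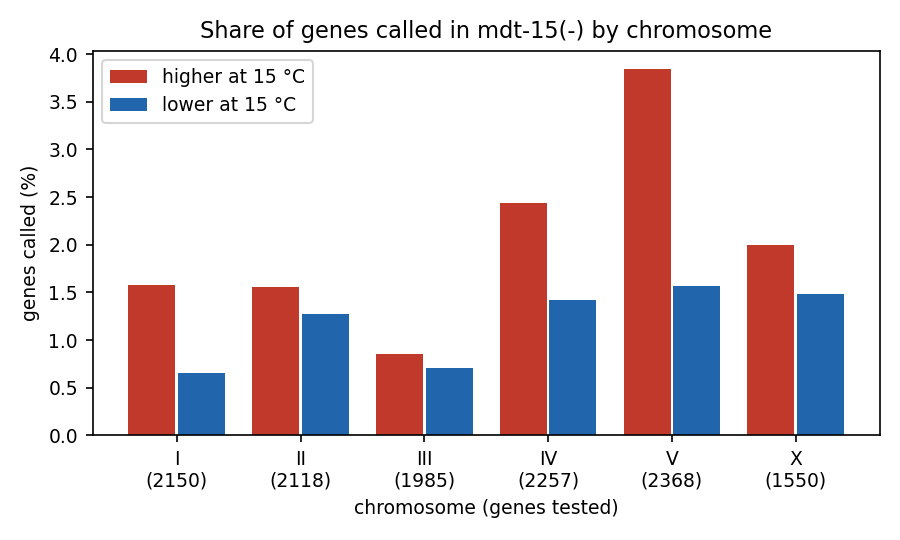
Share of genes tested (%, y axis) that were called higher or lower at 15 °C in *mdt-15(-)*, by nuclear chromosome, with the number of genes tested in brackets. Chromosome V has the greatest share of genes that rose (3.84%) and chromosome III the smallest (0.856%).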

How the data were processed

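The authors sequenced RNA of 12 libraries, and per the labels aligned paired-end reads to ce11 with HISAT2 (version 2.0.5) and ran StringTie (version 1.3.3) and Ballgown (version 2.0.0). They compared groups with limma (version 3.24.15) and edgeR (version 3.10.5), leaving out genes with a cpm under 1. Their gene annotation is, in the sources used here, not given. The values deposited by the authors are log2 fold changes and log2 average expression on the voom scale, moderated t statistics (a score) and p-values, raw and adjusted, in 3 tables of comparisons. These comparison columns were used because the tables hold nothing per library. The log odds column was not used.

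Each SE is the ratio of a log2 fold change to its t. The variance of the mutant contrast is the sum of the squared SEs of both *mdt-15(-)* comparisons minus that of the temperature comparison. This is exact if all 3 comparisons came from 1 fit of group means. The comparison at 15 °C holds 12443 genes and the other 2 hold 12749, so whether they came from 1 fit is not known. Tests were two-sided on limma's 10.4 degrees of freedom, recovered from t and p. On simulated data, fitted once, the derived values were checked against limma's direct contrast (limma 3.58.1, R 4.3.3). That check does not cover separate fits. Signs follow the tables' names, first minus second group, and were turned to 15 °C minus 25 °C. With the 25 °C table turned round, the SD of the contrast over genes would be 1.85 in place of 1.00. Besides the 12443 genes, 306 were in 2 tables only. Positions come from Ensembl release 115 (12408 genes matched). Analyses ran in Python 3.11.15 (scipy 1.17.1, pandas 2.3.3, numpy 2.4.6), and figures were drawn with matplotlib 3.10.9.

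Genes were named by these rules: the 10 highest and 10 lowest t among calls with an average log2 expression above or at 1, the 5 largest changes each way, up to 4 called members per list (otherwise the member of largest t), opposite calls in wild type, genes that pass the difference test, and the genes the study names. The 62 lists are families by gene name and textbook function. The members, lists and tests were chosen with earlier results of these data known. Serpins and 1 other gene were taken out of the chemoreceptor list after their names were seen. Further genes and sets chosen after their values were seen are *cdr-2*, *cpr-8*, *asp-13*, *nspa-7*, *nspa-6*, *nspa-1*, *pgp*, *lipl*, *nspa* to *nspe*, the major sperm proteins and those in the other observations. Alternatives tried were other thresholds, filters, centrings and error models.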

Additional observations from a re-analysis of the deposited data

Results flagged for a closer look

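For 14 genes the temperature effect, as log2 of 15 °C minus 25 °C, differed between *mdt-15(-)* and wild type by the test of the difference itself (limma's statistics, Benjamini-Hochberg adjusted p = 0.0187 to 0.0361 over 12443 genes). The effect in *mdt-15(-)* minus that in wild type was -5.06 for *fat-5* and -2.80 for *dod-23*, both of which fell in *mdt-15(-)*. It was 5.79 for *hsp-16.1*, 5.67 for *hsp-16.11*, 5.41 for *hsp-16.49*, 5.36 for *hsp-16.48* and 4.78 for *hsp-16.2*, which are small chaperone genes. *hsp-16.1* and *hsp-16.11*, and likewise *hsp-16.48* and *hsp-16.49*, carry 1 symbol per pair in the current annotation and can share reads. It was 4.61 for *nspc-18* and 3.57 for *cdr-4*, both of which rose in *mdt-15(-)*, while in wild type *nspc-18* was also called higher and *cdr-4* was not called. It was 5.74 for *lips-11* and 6.03 for *C04C3.14*, which were above 1 cpm in *mdt-15(-)* at 15 °C alone. *sri-40*, a chemoreceptor gene by name, had a difference of 2.35, with 3.89 cpm in *mdt-15(-)* at 15 °C and 0.834 cpm in *mdt-15(-)* at 25 °C, against 22.8 and 24.9 cpm in wild type. *pud-4* had a difference of 6.49, with 0.158 and 0.310 cpm in *mdt-15(-)* at 15 °C and 25 °C, against 2.46 and 434 cpm in wild type. *H11L12.1* had a difference of 2.73, since it fell less in *mdt-15(-)* (-1.19) than in wild type (-3.92).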

How the results depend on the processing

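No paired analysis was possible because the tables hold no value per library, and for the same reason no repeat could be left out. The 261 higher and 149 lower genes of *mdt-15(-)* became 1605 and 729 at the study's threshold, 137 and 87 among genes averaging 1 or more on the log2 scale, 58 and 31 with standard errors 1.2 times as large, 77 and 58 on 8 degrees of freedom, and 5 and 3 when the spread of the wild-type groups, which by construction adds to the error, was not subtracted. With at least 1 cpm in both mutant groups, a filter chosen after seeing the data, they were 120 and 75. Centred on a running median along expression, 172 genes were higher. Of 87 named genes that were called, 79 lost the call when the spread of the wild-type groups was not subtracted, 41 with the larger standard errors and 33 on 8 degrees of freedom, and all 3 alternatives lost *hsp-16.2*, the named sperm, yolk and collagen genes, and *tnt-2*. *cyp-33C8*, *cdr-4*, *nspc-18*, *lips-11*, *C04C3.14*, *fat-5*, *dod-23* and *sdz-6* kept the call in each alternative that tested them. Only the centrings move a fold change, and under them none of the 87 changed sign. The 14 genes of the difference between genotypes became 862 at the study's threshold, 7 with at least 1 cpm in all 4 groups (chosen after seeing the data), and 0 with larger standard errors and 0 on 8 degrees of freedom, where 868 have an unadjusted p below 0.05 on limma's own errors. The 156 wild-type genes became 1182 at the study's threshold. The cause of these shifts was not tested unless named. Of 62 list medians, 9 changed sign when centred along expression, none of them over 0.08 in size. Over all lists, centrings and the expression filter, 5 of 219 recomputed medians moved by more than the list's median SE. That of the F-box B and C genes went from -0.64 to 0.27 among genes averaging 1 or more on the log2 scale.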

Other observations

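Several called genes outside the lists, chosen after their values were seen, have known roles. *fkb-5* and *fkb-8* encode peptidyl-prolyl isomerases, which help proteins fold, and moved in opposite directions. *fkb-5* rose to 84.0 cpm in *mdt-15(-)* at 15 °C, against 18.1 cpm in *mdt-15(-)* at 25 °C, with 71.8 and 16 cpm in wild type, and *fkb-8* fell to 2.83 cpm, against 21 cpm. *hrg-3*, which encodes a carrier of heme to embryos, rose to 32.5 cpm in *mdt-15(-)* at 15 °C, against 4.64 cpm in *mdt-15(-)* at 25 °C. *alg-3*, which encodes an Argonaute protein of the male germ line, rose to 5.12 cpm, against 1.02 cpm. Of 5 serpin genes, which encode protease inhibitors, *srp-7* and *srp-3* rose by log2 fold changes of 2.17 and 1.95. Of 5 *pmp* genes, which encode transporters of the peroxisomal membrane, *pmp-1* and *pmp-4* rose by 1.22 and 1.13. In each of these groups of 5, the genes that rose are 40%, beside 2.1% of all genes. Both groups were formed after the values were seen, so a high share was built in. Of the 5 *pmp* genes, 3 were above 0 and 2 below, and at the study's own threshold 2 were higher and 1 lower.

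Families of ubiquitin ligase adaptors held calls as follows, beside 2.1% of all genes higher and 1.2% lower. Of 71 MATH and BTB genes, 0 rose and 3 fell (4.23%), with *math-45* at 0.258 cpm in *mdt-15(-)* at 15 °C and 4.92 cpm in *mdt-15(-)* at 25 °C. Of 31 F-box B and C genes, 0 rose and 2 fell (6.45%), and at the study's own threshold 11 were lower and 3 higher. Their median was -0.64, but it was 0.27 among the 19 genes averaging 1 or more on the log2 scale. Of 20 Skp1-related genes, 0 rose and 1 fell. Of the F-box A genes, 2 rose and 2 fell (1.92% each). *nlp-24* was the 1 called gene of 107 neuropeptide and insulin genes (0.935%). It rose to 247 cpm in *mdt-15(-)* at 15 °C, against 34 cpm in *mdt-15(-)* at 25 °C. The list median was 0.49 in *mdt-15(-)*, against 0.23 in wild type. In *mdt-15(-)*, 93 of the 107 had a positive log2 fold change, beside 6464 of all 12443 genes. At the study's own threshold, 26 of the 107 were higher, beside 12.9% of all genes, and 0 were lower.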
